A study of Mus musculus with 2 samples.

Results

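The 10 genes described here encode the enzymes and essential partners that place or remove repressive methyl marks on chromatin: the Polycomb repressive complex 2 core (Ezh2, Eed and Suz12), the DNA methyltransferases with the maintenance factor Uhrf1 (Dnmt1, Uhrf1, Dnmt3a and Dnmt3b), and the TET dioxygenases (Tet1, Tet2 and Tet3). They were chosen by name, as 10 of the 19144 genes in a single-cell count table, and not by a cutoff on a measured value. Earlier results of these data were known when they were chosen. The cells came from primary neurospheres, floating spheres that grow from single dissociated cells, here of tissue lining the forebrain ventricles of CD1 mouse embryos. The cultures were kept for 7 to 10 days in serum-free medium with 10 ng/mL of leukemia inhibitory factor (LIF) and an additive named EFH, at no more than 40 cells per μL, and a primitive sphere was one of at least 50 μm. Dissociated spheres were profiled by Drop-seq, a droplet method that counts the 3′ ends of polyadenylated RNA with unique molecular identifiers (UMIs). There were 2 samples of 1 group, pNSCs1 and pNSCs2, with no untreated, mutant or LIF-free group, and neither the age nor the number of the embryos is stated. The 2 samples share 1 table without a map from barcodes to samples. The table was therefore treated as 1 sample, barcodes shared between the libraries could not be counted, and no test between samples was possible.

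Polycomb repressive complex 2 places methyl groups on the tail of histone H3, and the methylated histone keeps developmental genes silent. Ezh2 is its catalytic subunit, Suz12 is the scaffold that holds the complex together, and Eed binds the finished mark and stimulates the enzyme. Dnmt1 copies CpG methylation onto the new strand behind the replication fork, guided by Uhrf1, which binds hemimethylated CpG, whereas Dnmt3a and Dnmt3b add methylation to unmethylated CpG. The TET enzymes oxidise methylcytosine, the first step of its removal. In the embryonic forebrain these systems are known for restraining or timing the passage from neural progenitor to neuron and glia.

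The promoters of Ezh2, Suz12, Dnmt1 and Uhrf1 carried a sequence feature that the other 6 genes lacked, so these sequences are given. These 4 genes were also those past the fold threshold between S phase and low-cycle cells. Eed, which lacked the feature, fell just short of that threshold. For Suz12 and Uhrf1 the stretch runs from 250 bases before to 30 bases after an annotated start, and for Ezh2 and Dnmt1, where exons of other transcripts overlap the window, it is the 30 bases around the match, all in RefSeq, GRCm38.p6, 5′ to 3′ on the gene's strand: chr6:47595009-47595038 (- strand) for Ezh2, chr11:79992856-79993135 (+ strand) for Suz12, chr9:20952824-20952853 (- strand) for Dnmt1 and chr17:56304063-56304342 (+ strand) for Uhrf1. Capitals mark an E2F-type match, spelled TTTGGCGC, TTTCCCGC, TTTCGCGC or TTTGCCGC on either strand. E2F factors drive genes of DNA replication in late G1 and S phase.
Ezh2: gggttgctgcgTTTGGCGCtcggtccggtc
Suz12: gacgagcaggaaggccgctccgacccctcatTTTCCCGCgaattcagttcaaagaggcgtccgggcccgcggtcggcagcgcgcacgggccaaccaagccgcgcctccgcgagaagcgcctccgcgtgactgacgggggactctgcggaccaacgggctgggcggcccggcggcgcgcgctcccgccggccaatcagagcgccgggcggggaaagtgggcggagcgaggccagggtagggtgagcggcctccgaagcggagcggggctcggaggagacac
Dnmt1: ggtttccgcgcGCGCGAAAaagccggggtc
Uhrf1: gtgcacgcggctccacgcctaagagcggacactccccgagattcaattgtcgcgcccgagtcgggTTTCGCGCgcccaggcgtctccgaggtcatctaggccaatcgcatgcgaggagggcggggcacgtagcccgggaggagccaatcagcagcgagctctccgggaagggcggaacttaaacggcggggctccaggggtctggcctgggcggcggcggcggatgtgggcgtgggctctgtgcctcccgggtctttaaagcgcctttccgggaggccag
In Ezh2 the match began 4 bases after the start, in Suz12 219 bases before it, and in Uhrf1 185 bases before it. In Dnmt1 a reverse-strand match began 219 bases before the start, and a further TTTGGCGC began 34 bases after it, beyond the printed stretch. RefSeq windows of 300 bases (250 before to 50 after a start) were found for 10 of 10 genes, as 15 windows, and 3 of these belonged to Dnmt1 and 2 to Uhrf1, of which 1 window each held a match. No match was found in the windows of Eed, Dnmt3a, Dnmt3b, Tet1, Tet2 or Tet3. Among all 32851 windows of the same length, 744 (2.26%) held a match.

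The table held 17591915 UMIs in 4000 barcodes. Barcodes with fewer than 500 genes (132) or more than 10% mitochondrial UMIs (148) were left out, 235 in all, which left 3765 cells with 638 to 54060 UMIs each (median 3869). The kept cells carried the markers of neural progenitors: all 7 radial glia markers were detected, with a summed level of 12922 UMIs per 1000000 (CPM), against 188 CPM for 12 immature neuron markers, 285 CPM for 5 astrocyte markers, and 2 UMIs of microglia and 13 of fibroblast markers in total. Gfap, the astrocyte filament gene, had 10 UMIs outside the neuron-like cells and 0 in them, and Aqp4 had 40 and 0. The astrocyte sum came mostly from Gja1 (2437 UMIs outside the neuron-like cells), Aldh1l1 (1947) and Slc1a2 (514). Cells of at least 1000 UMIs (3547, the neuron-like cells left out) were cut into tertiles by the share of their UMIs from an S phase list (39 of 40 genes measured) and, separately, from a G2/M list (52 of 54 genes measured). None of the 10 genes is in either list. Cells in the lowest tertile of both were called low-cycle (804 cells), the top S tertile below the top G2/M tertile was called S (701), the top G2/M tertile below the top S tertile G2/M (701), the top tertile of both S and G2/M (481), and the remaining 860 intermediate. These classes are ranges of a continuous score: 187 cells lay within 10% of the lower S bound and 306 within 10% of the upper one, and for the G2/M bounds the numbers were 255 and 209.

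In all kept cells the 10 genes together gave 1065 CPM, of which the Polycomb core held 624 CPM, the DNA methyltransferase group 345 CPM and the TET group 96.3 CPM. A UMI stands for 1 captured 3′ end, so gene length does not enter these levels. Ezh2 (chr6:47530139-47595341, - strand) was the highest of the 10, at 438 CPM (428 to 448) from 7618 UMIs, which placed it at rank 359 of 19144 genes. Its partners Eed (chr7:89954654-89980983, - strand) and Suz12 (chr11:79993106-80034123, + strand) stood lower and close to each other, at 95.4 CPM (90.8 to 100.1) and 90.5 CPM (86.1 to 95.1), with the interval in brackets being the exact 95% Poisson interval, which covers counting error only. The catalytic subunit was counted several times as often as the other core subunits, and differences between genes in the capture of their 3′ ends are part of such a comparison.

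Dnmt1 (chr9:20907209-20959888, - strand) was the second highest gene, at 189 CPM (182 to 195), and its guide Uhrf1 (chr17:56303321-56323486, + strand) reached 90.0 CPM (85.6 to 94.5). Dnmt3a (chr12:3806007-3914443, + strand) stood at 64.2 CPM (60.4 to 68). Dnmt3b (chr2:153649450-153687730, + strand) was close to absent, with 42 UMIs in 3765 cells, or 2.41 CPM (1.74 to 3.26). The order of the TET genes was Tet3 (chr6:83362373-83459084, - strand) at 46 CPM (42.9 to 49.3), Tet1 (chr10:62804570-62908996, - strand) at 31.8 CPM (29.2 to 34.6) and Tet2 (chr3:133463679-133545139, - strand) at 18.5 CPM (16.5 to 20.6). Along the order of all 10, the intervals of Eed, Suz12 and Uhrf1 overlapped, and those of every other pair of neighbours did not. Positions are from GENCODE M21 on mm10. Dnmt3a, Dnmt3b and Tet2 lie over an annotated antisense gene and Ezh2, Eed, Suz12 and Tet3 over another gene on the opposite strand, and since the strand setting of the counting is not stated in any source used here, reads from those partners may be included.

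**Figure D1:**
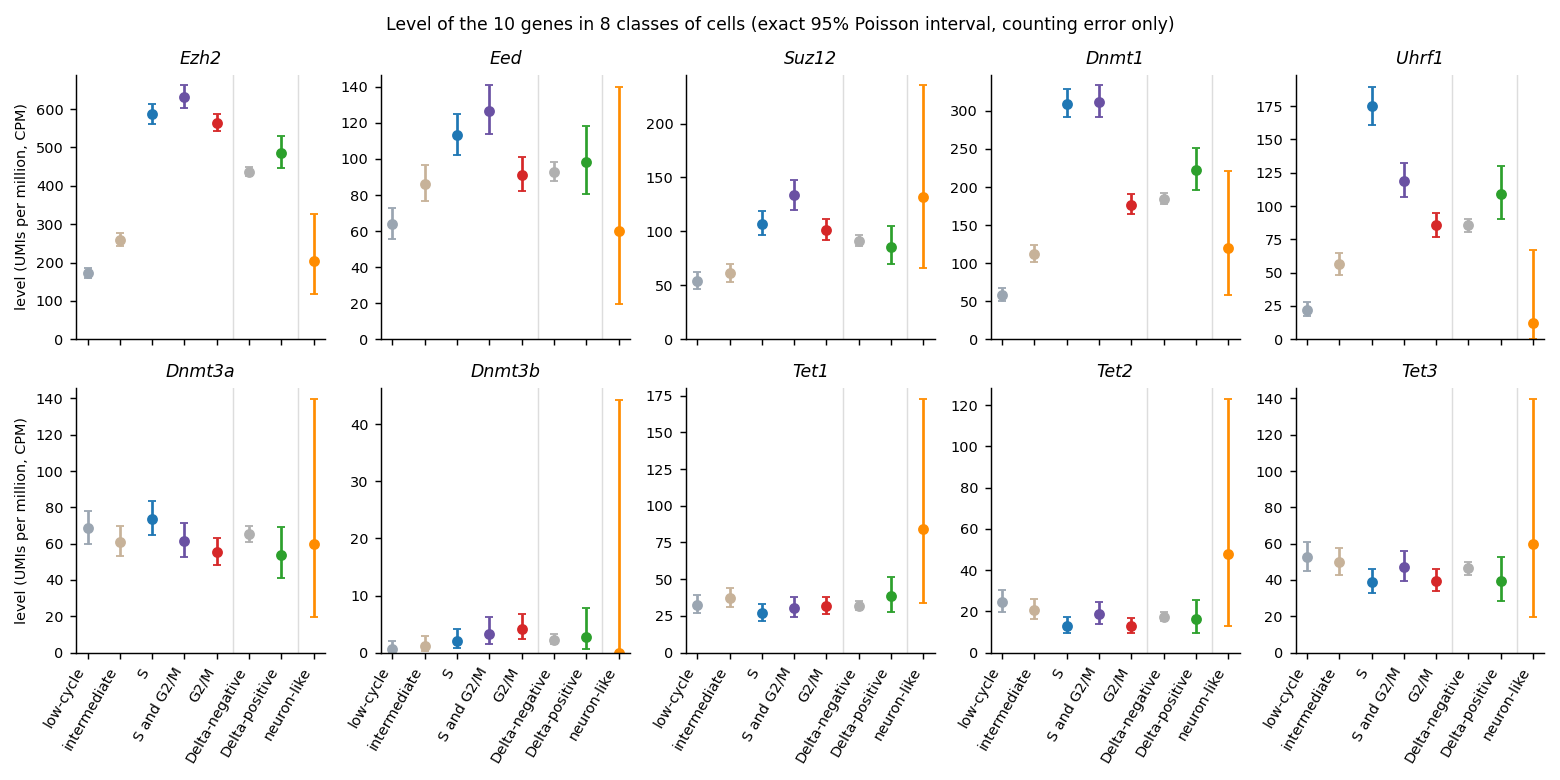
Level of each of the 10 genes (CPM, linear axis from 0, a separate scale for each gene) in 5 cell cycle classes, in Delta-negative and Delta-positive cells and in neuron-like cells. Points are summed UMIs of a class per 1000000 and bars are exact 95% Poisson intervals for counting error. Ezh2, Dnmt1 and Uhrf1 are lowest in the low-cycle class among the 5 cycle classes, and Uhrf1 is highest in S at 175 CPM.

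Between low-cycle and S phase cells the maintenance pair Dnmt1 and Uhrf1 and, of the Polycomb core, Ezh2 and Suz12 were higher in S phase, while Eed, Dnmt3a and the TET genes did not pass the fold threshold. A gene was said to pass the fold threshold when the whole exact 95% interval of the ratio of levels lay above 1.5 or below 0.667. This was asked of the 11057 genes with at least 50 UMIs, which include 9 of the 10 genes and leave out Dnmt3b. There were 4 of 9 genes above the threshold in S over low-cycle cells (Uhrf1, Dnmt1, Ezh2 and Suz12), where 5.47% of all genes tested were above, and 0 of 9 below, where 1.91% of all genes were. The median ratio was 1.77 over the 9 genes and 0.959 over all genes tested.

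Ezh2 stood at 172 CPM in low-cycle, 259.9 in intermediate, 587 in S, 632 in S and G2/M, and 565 in G2/M cells. The 3 cycling classes lay close together and far above the low-cycle class, with a ratio of 3.41 (3.11 to 3.75) for S over low-cycle. Suz12 stood at 53.6, 61.3, 107, 134 and 102 CPM in the same order of classes. Its S over low-cycle ratio was 2.0 (1.67 to 2.4). Eed stood at 63.8, 86.3, 113, 127 and 91.2 CPM. Its ratio of 1.77 (1.498 to 2.1) fell just short of the threshold, while its ratio for S and G2/M over low-cycle cells, 1.98 (1.67 to 2.36), passed it, with 6.23% of all genes above in that comparison. The interval of the catalytic subunit lay above those of the other core subunits, which overlapped each other. The calls for Ezh2, Dnmt1 and Uhrf1 held in 17 of 17 settings (the one described and 16 alternatives), that for Suz12 in 14 of 17, and Eed was above the threshold in 8 of 17. Not all alternatives could take a call away. A minimum of 200 genes left these classes unchanged, and a threshold of 1 or no minimum of UMIs per gene could remove no call. Suz12 was not above under a threshold of 2, with each cell thinned to 1000 UMIs before summing, or with a median split in place of tertiles.

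Uhrf1 had the largest S over low-cycle ratio of the 9 genes tested, going from 22.2 CPM in low-cycle through 56.2 in intermediate to 175 in S cells, then 119 in S and G2/M and 85.5 in G2/M cells. Each neighbour in the order of these levels differed by an interval that did not include 1. That ratio was 7.88 (6.2 to 10.1). Dnmt1 stood at 58.3 CPM in low-cycle, 113 in intermediate, 309.7 in S, 312 in S and G2/M and 177 in G2/M cells, a ratio of 5.31 (4.56 to 6.21). The enzyme and its guide were both highest in the classes with a high S list, and for Dnmt1 the 2 such classes did not differ beyond counting error, at a ratio of 1.01.

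The de novo enzyme Dnmt3a did not pass the threshold between S and low-cycle cells. It stood at 68.5 CPM in low-cycle, 61 in intermediate, 73.7 in S, 61.5 in S and G2/M and 55.2 in G2/M cells. With the classes ranked by level, no neighbours differed beyond counting error, but the ends of that order did, with S over G2/M at 1.34 (1.11 to 1.61). Its S over low-cycle ratio of 1.08 (0.897 to 1.29) lay wholly inside the fold threshold on both sides. Dnmt3b had 2 UMIs in low-cycle, 4 in intermediate, 7 in S, 9 in S and G2/M and 17 in G2/M cells. Its G2/M over low-cycle ratio of 7.18 (1.71 to 64.1) rests on 19 UMIs and was not tested.

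The TET genes had S over low-cycle ratios below 1. Tet2 stood at 24.5 CPM in low-cycle, 20.6 in intermediate, 13.1 in S, 18.7 in S and G2/M and 12.8 in G2/M cells, with an S over low-cycle ratio of 0.533 (0.363 to 0.775). Tet3 stood at 52.5, 49.9, 38.9, 47.2 and 39.7 CPM, a ratio of 0.741 (0.588 to 0.932). Tet1 stood at 32.4, 37, 26.7, 30.4 and 31.8 CPM, a ratio of 0.825 (0.619 to 1.1). The intervals of Tet2 and Tet3 lay below 1, as did those of 20.7% of all genes tested, but did not lie wholly below 0.667. That of Tet1 included 1, and no TET gene passed. On the other side the intervals of Eed and the 4 genes past the threshold lay above 1, as did those of 18.6% of all genes. Summed, the TET group went from 109 CPM in low-cycle to 78.6 CPM in S cells, while the Polycomb core went from 289.5 to 807 CPM and the DNA methyltransferase group from 149.6 to 560.1 CPM.

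**Figure D2:**
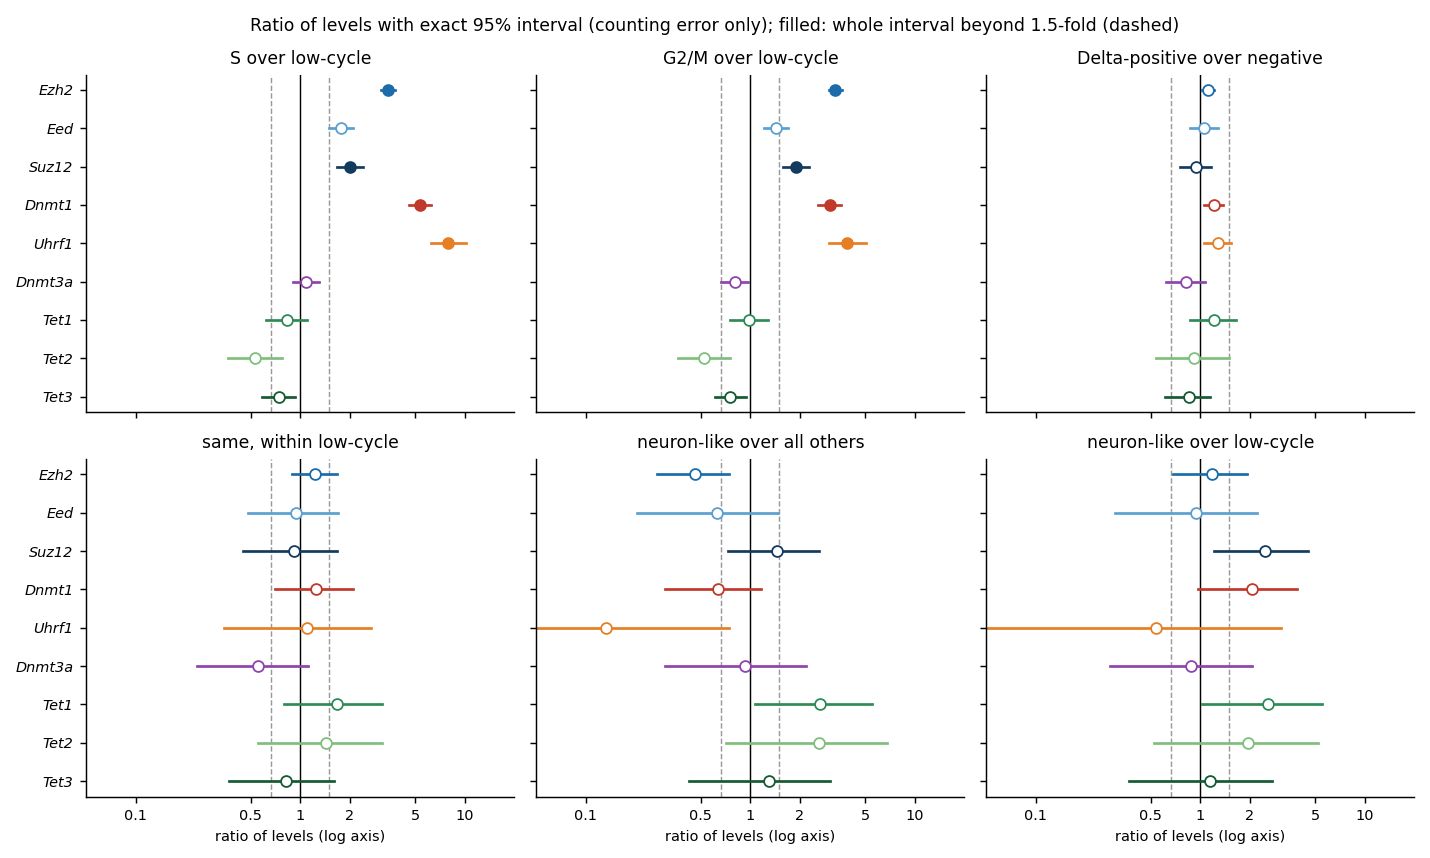
Ratio of levels (log axis) for 9 genes in 6 comparisons, with exact 95% intervals for counting error, where the interval of Uhrf1 in both neuron-like panels runs off the left edge. Dashed lines mark 1.5 and 0.667, and filled points have their whole interval beyond them. Filled points are present in the S and G2/M panels, for Ezh2, Suz12, Dnmt1 and Uhrf1, and in no other panel.

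In G2/M over low-cycle cells 4 of 9 genes were above the threshold and 0 below, with 5.48% of all genes above and 3.89% below. The ratios of the 4 were 3.86 (3.0 to 5.01) for Uhrf1, 3.28 (3.0 to 3.6) for Ezh2, 3.03 (2.59 to 3.57) for Dnmt1 and 1.89 (1.59 to 2.26) for Suz12. The other 5 genes tested ran from 0.523 (0.363 to 0.748) for Tet2 to 1.43 (1.2 to 1.7) for Eed, and both comparisons share the low-cycle cells. Besides those of the 4, the interval of Eed lay above 1 (18.7% of all genes did), and those of Dnmt3a, Tet2 and Tet3 lay below 1 (25.6% did). S and G2/M cells were also set directly against each other. Uhrf1 was 2.04 times as high in S as in G2/M cells (1.79 to 2.34) and Dnmt1 1.75 times (1.59 to 1.93), both above the threshold, where 1.66% of all genes were. Ezh2, at 1.04 (0.979 to 1.1), Suz12, at 1.05 (0.914 to 1.22), and Eed, at 1.24 (1.07 to 1.44), lay wholly inside it. Dnmt3a, at 1.34 (1.11 to 1.61), excluded 1 without passing, and the intervals of Tet1, Tet2 and Tet3 included 1. Suz12 in G2/M over low-cycle cells was above the threshold in 13 of 17 settings, and was not with a threshold of 2, a median split, list shares from thinned counts, or clusters in place of list tertiles.

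The 9 combinations of S and G2/M tertiles show how each gene followed the 2 lists. Within the lowest S tertile, Ezh2 rose from 172 CPM in the lowest to 574 CPM in the highest G2/M tertile, a ratio of 3.34 (2.8 to 3.96) that passed the threshold (2.93% of all genes above). Within the highest G2/M tertile the S list made no difference beyond counting error, at 1.1 (0.941 to 1.3) for the highest over the lowest S tertile. A high Ezh2 level was found wherever either list was high. For Dnmt1 the S list still separated cells within the highest G2/M tertile, from 141 to 312 CPM, a ratio of 2.21 (1.62 to 3.09) above the threshold, where 0.76% of all genes were above. Uhrf1 was highest with the S list high and the G2/M list low or middle, at 169 and 176 CPM, and stood at 119 CPM with both high. The last over the first of these gave 0.702 (0.548 to 0.91), which excluded 1 and did not pass the threshold. Uhrf1 and Dnmt1 also went up with the G2/M list within the lowest S tertile. Uhrf1 went from 22.2 CPM in the lowest to 90.6 CPM in the highest G2/M tertile, and Dnmt1 from 58.3 to 141 CPM. Within the highest G2/M tertile the Uhrf1 intervals overlapped, at 59.7 to 132 CPM (27 UMIs) in the lowest and 106 to 133 CPM in the highest S tertile. The corner with a low S and a high G2/M list holds 83 cells.

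**Figure D3:**
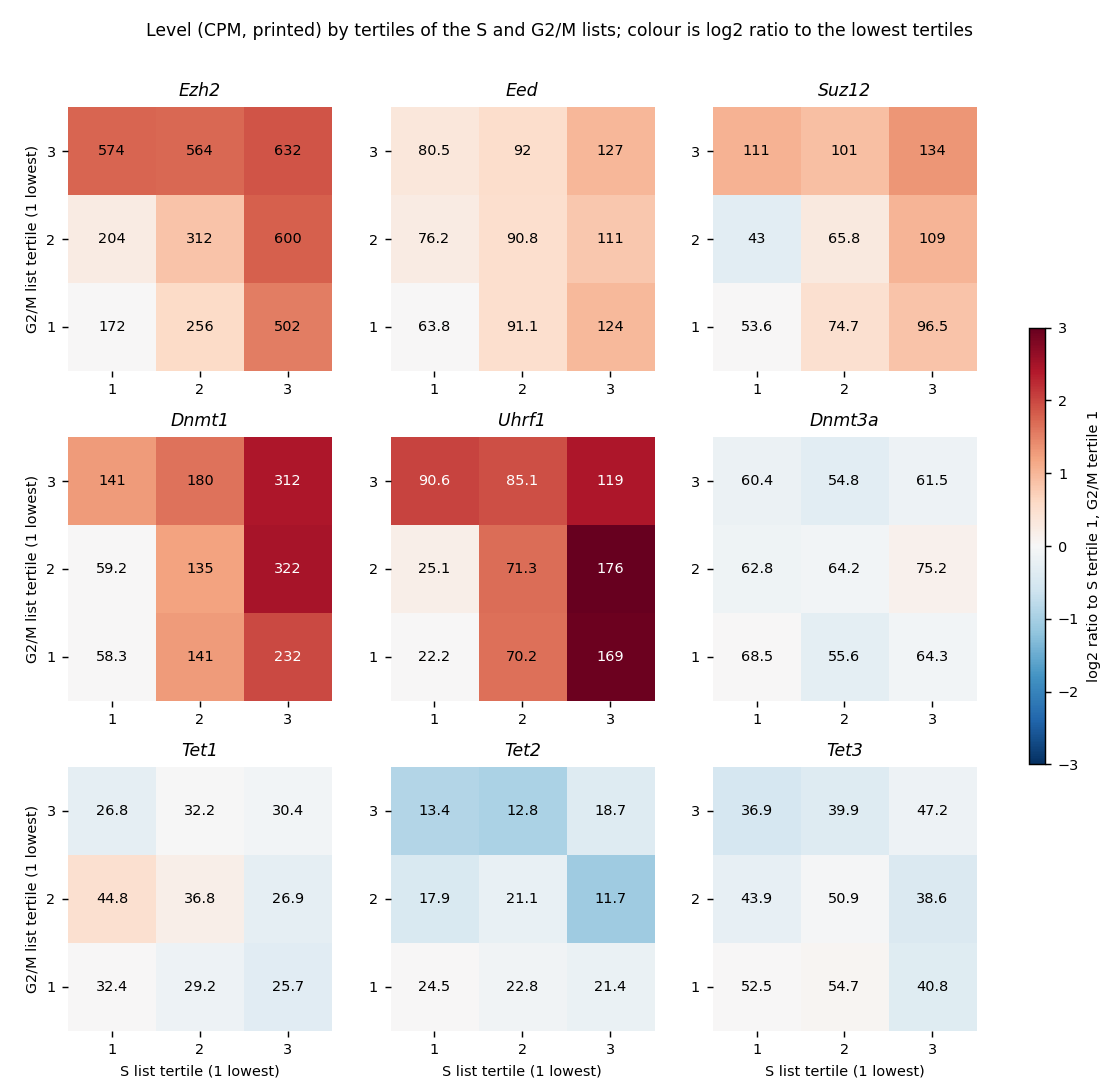
Level of 9 genes (CPM, printed in each square) by tertile of the S list (horizontal) and tertile of the G2/M list (vertical), with colour giving the log2 ratio to the square where both are lowest. Ezh2 is high along both the right column and the top row, and Uhrf1 reaches its highest levels at 169 and 176 CPM in the lower right squares.

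Over quintiles of the 3547 cells by the S list alone, Uhrf1 stood at 16.9, 48.6, 79.1, 114 and 169.6 CPM from the lowest to the highest quintile, and Dnmt1 at 54.5, 78.7, 168, 241 and 353 CPM. Both went up at every step. Ezh2 stood at 182, 248, 485, 555 and 633 CPM, with its widest step between the second and the third quintile. The highest over the lowest quintile passed the threshold for Uhrf1 (10.0, 7.47 to 13.8), Dnmt1 (6.47, 5.47 to 7.7), Ezh2 (3.49, 3.17 to 3.84), Suz12 (2.19, 1.82 to 2.64) and Eed (1.85, 1.56 to 2.2), where 6.04% of all genes were above. Tet2, at 0.572 (0.388 to 0.837), did not pass in the other direction, and the intervals of Dnmt3a, Tet1 and Tet3 included 1.

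**Figure D4:**
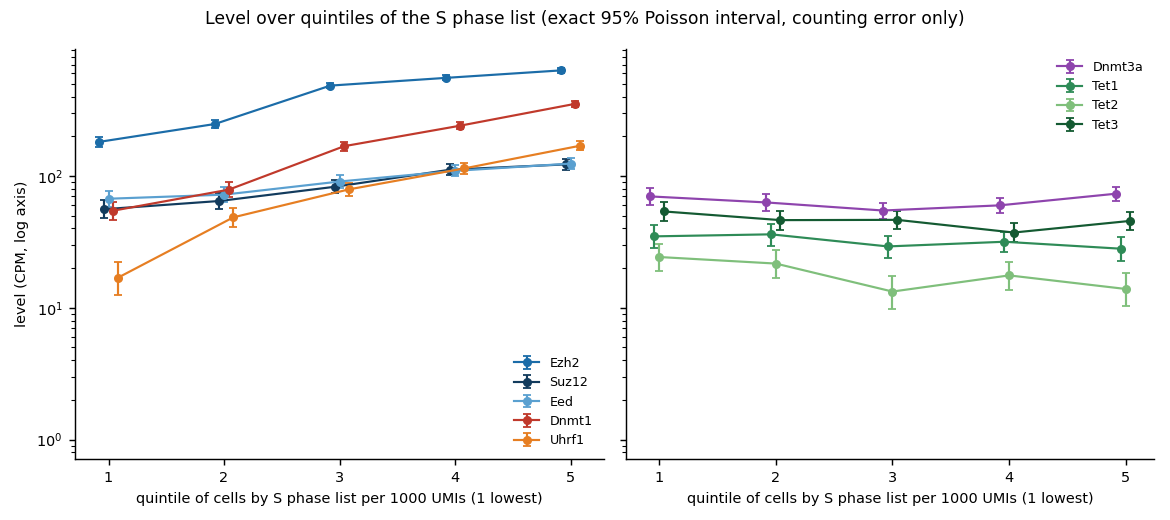
Level (CPM, log axis) over quintiles of cells by the S list, with exact 95% Poisson intervals for counting error. The left panel shows the 5 genes whose highest quintile passed the threshold over the lowest, from 1.85 for Eed to 10.0 for Uhrf1, and the right panel shows Dnmt3a and the TET genes, which did not.

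Depth differed between the classes, with a median of 3729.5 UMIs per low-cycle cell, 4333 per S cell and 4845 per G2/M cell, and the share of mitochondrial UMIs was 3.45%, 2.94% and 2.64%. The radial glia markers summed to 14279.6 CPM in low-cycle, 12665 in S and 11894 in G2/M cells, and the immature neuron markers to 179.6, 187 and 127 CPM. At an equal depth of 1000 UMIs per cell, Ezh2 was detected in 15.9% (13.5 to 18.6%) of low-cycle, 43.5% (39.8 to 47.3%) of S and 43.5% (39.8 to 47.3%) of G2/M cells (exact binomial intervals), against 44.5%, 83% and 83.3% at full depth. The low-cycle share of Ezh2 was near that of the neuron-like cells, 13.8% (3.89 to 31.7%). Dnmt1 was detected in 4.73% (3.37 to 6.43%), 27.5% (24.3 to 31%) and 13.4% (11 to 16.2%) of the same classes at equal depth, and Uhrf1 in 2.11% (1.24 to 3.36%), 13.8% (11.4 to 16.6%) and 6.85% (5.09 to 8.98%). At full depth the shares were 19.8%, 67% and 51.2% for Dnmt1, and 8.21%, 51.1% and 33.7% for Uhrf1. The separation of cycling from low-cycle cells was thus present at equal depth for these 3 genes. For the TET genes the shares at equal depth were low everywhere, from 1.14% (Tet2, S) to 5.85% (Tet3, low-cycle) over these 3 classes, and Dnmt3a lay between 5.56% and 7.84%.

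Within the low-cycle class, the deepest tertile of cells over the shallowest tertile gave 0.699 (0.568 to 0.864) for Ezh2, from 231 to 161 CPM, and the intervals of the other 8 genes tested included 1. None of the 9 passed the threshold, as 0.534% of all genes did. The spread between cells of 1 class was set against that of counting alone. At 1000 UMIs per cell the variance over the mean was 1.23 for Ezh2 in all cells and 1.17 in low-cycle, 1.12 in S and 1.1 in G2/M cells, where 1 is the value for counting error alone. For Dnmt1 it was 1.13 in all cells and 1.03 in S cells, and for Uhrf1 1.07 and 1.0. Over the 10 genes and the low-cycle, S and G2/M classes it ran from 0.963 (Tet3, S) to 1.28 (Tet3, G2/M), with Tet1 in low-cycle and Suz12 in G2/M cells at 1.23 and 1.23. The means were low, 0.331 UMIs per S cell for Dnmt1 and 0.15 for Uhrf1, so a value near 1 does not show that cells were alike.

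Other genes of these pathways were read from 8 lists of 77 genes, of which 54 had at least 50 UMIs, and their counts in S over low-cycle cells stand beside 5.47% of all genes above and 1.91% below. Among the 6 DNA methylation cofactors measured, Hells, a chromatin remodeller that works with the methyltransferases, and its activator Cdca7 were above the threshold in S over low-cycle cells, at 14.2 (11.3 to 17.9) and 3.71 (3.17 to 4.35), and the list's median was 1.62. Of 8 partners of Polycomb repressive complex 2, 2 were above (5.47% of all genes were): Phf19, which recruits the complex (6.72, 2.34 to 26.4, from 27 and 4 UMIs), and the histone-binding Rbbp7 (1.74, 1.58 to 1.92), with a median of 1.3. Ezh1, the paralogue that can replace Ezh2 in the complex, was scarce, at 8.16 CPM in low-cycle and 5.22 CPM in S cells (0.64, 0.333 to 1.2). Uhrf2, the paralogue of Uhrf1, gave 1.66 (1.25 to 2.23) in S and 2.0 (1.53 to 2.64) in G2/M over low-cycle cells, and passed in the second. Dnmt3l was not analysed here.

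Of 19 subunits of the other Polycomb complex, PRC1, 2 were above the threshold in S over low-cycle cells (5.47% of all genes were), Cbx2, which reads the histone mark (4.27, 1.84 to 11.5, from 30 and 7 UMIs), and Pcgf5 (2.24, 1.6 to 3.19), with a median of 1.25. Of 5 enzymes that oppose Polycomb, Kdm6b, a demethylase of the same histone mark, was below at 0.434 (0.331 to 0.566). Of 8 genes of demethylation, repair and TET function, the glycosylase Mbd4 was above at 3.75 (2.17 to 6.83), and the stress and growth-arrest genes Gadd45a, at 0.375 (0.251 to 0.549), and Gadd45g, at 0.527 (0.465 to 0.598), were below. None of 6 methyl-CpG readers passed. In G2/M over low-cycle cells, where 5.48% of all genes were above and 3.89% below, Phf19, Pcgf5, Hells, Cdca7 and Uhrf2 were above, from 2.0 for Uhrf2 to 10.1 for Phf19 (48 and 4 UMIs), and Gadd45a was below at 0.469 (0.332 to 0.656). The 5 measured germline genes known to be silenced by DNA methylation had 15 UMIs in all, so none could be tested.

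Delta-positive cells, defined as cells of at least 1000 UMIs with 2 or more UMIs of the Notch ligands Dll1 and Dll3 (200 cells), were set against cells with none (2808 cells), and 539 cells with 1 such UMI were placed in neither class. The median depth was 4369 UMIs per Delta-positive and 3962.5 per Delta-negative cell, and a count of ligand UMIs at full depth is reached more readily in deeper cells. Delta ligands mark progenitors on the way to differentiation. None of the 9 genes passed the fold threshold, where 0.85% of all genes did. Uhrf1 stood at 109 CPM in Delta-positive and 85.4 CPM in Delta-negative cells, a ratio of 1.27 (1.05 to 1.54). Dnmt1 stood at 222 and 185 CPM (1.2, 1.05 to 1.37), and Ezh2 at 486 and 437 CPM (1.11, 1.02 to 1.22). These 3 intervals lay above 1, as did those of 6.56% of all genes. Summed after thinning each cell to 1000 UMIs, Uhrf1 stood at 110 against 72.6 CPM and Ezh2 at 505 against 432 CPM, but Dnmt1 at 180 against 184 CPM, lower in the Delta-positive cells. With the cluster of highest Delta level in place of the Delta-positive cells all 3 ratios fell below 1, to 0.966 for Ezh2, 0.888 for Dnmt1 and 0.945 for Uhrf1. The intervals of Ezh2, Dnmt1, Eed (1.05, 0.86 to 1.28) and Suz12 (0.94, 0.755 to 1.16) lay wholly within the threshold, so that a change of 1.5 times or more was outside counting error for them. Dnmt3a gave 0.822 (0.621 to 1.07), Tet1 1.21 (0.862 to 1.66), Tet2 0.919 (0.535 to 1.49) and Tet3 0.847 (0.609 to 1.15), and for these a change of that size is not outside the interval on every side. At equal depth the Ezh2 share was 36% (29.4 to 43.1%) of Delta-positive and 32.4% (30.7 to 34.2%) of Delta-negative cells (71.5% and 66.7% at full depth).

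The cycle mix of the Delta-positive and Delta-negative cells was 24% against 22.9% in the low-cycle, 21% against 19.3% in the S, and 15% against 20.2% in the G2/M class. With the Delta-negative level of each class weighted to the Delta-positive mix, a comparison added after seeing the data, the ratios were 1.26 (1.05 to 1.5) for Uhrf1, 1.19 (1.04 to 1.34) for Dnmt1 and 1.12 (1.03 to 1.22) for Ezh2. Within the low-cycle class (48 Delta-positive against 642 Delta-negative cells) 0 of 9 genes passed, as 0.606% of all genes did. The ratios there ran from 0.552 (0.235 to 1.11, 8 and 184 UMIs) for Dnmt3a to 1.66 (0.799 to 3.13, 11 and 84 UMIs) for Tet1, and every interval included 1. The Delta-positive cells also differed in markers: radial glia markers summed to 11642 against 13265 CPM, immature neuron markers to 203 against 156 CPM, and oligodendrocyte precursor markers to 69.6 against 29.8 CPM. Their part in the ratios was not tested.

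Neuron-like cells were the smallest of 9 clusters, with 32 cells and 83423 UMIs (median 1822 UMIs per cell, against 3884 in the other 3733 cells). The name rests on immature neuron markers, of which 10 of 10 with enough UMIs were above the fold threshold in this cluster, but 8 of these 10 were among the genes clustered on, so that their levels largely formed the cluster. Radial glia markers were still present, at a sum of 4675 against 12961 CPM, with UMIs for all 7. Ezh2 had 17 UMIs in these cells, 204 CPM (119 to 326), against 439 CPM in the others, a ratio of 0.464 (0.27 to 0.744). Uhrf1 had 1 UMI, a ratio of 0.133 (0.00336 to 0.74), and Dnmt1 had 10 UMIs, a ratio of 0.634 (0.304 to 1.17). On the other side Tet1 had 7 UMIs, 83.9 CPM (33.7 to 173), a ratio of 2.66 (1.06 to 5.51), and Tet2 had 4 UMIs, a ratio of 2.61 (0.707 to 6.75). The intervals of Ezh2 and Uhrf1 lay below 1, as did those of 5.6% of all genes, and that of Tet1 above 1, as did those of 9.76%, but 0 of 9 genes passed the threshold, where 6.43% of all genes did. Dnmt3b was not detected, and a count of 0 allows up to 36 CPM by a floor of 3 UMIs over the class (the exact 95% interval reaches 44.2 CPM).

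Neuron-like cells had 1.7 S list and 3.46 G2/M list UMIs per 1000, against 0.764 and 1.86 in low-cycle cells and 7.33 and 5.35 in S cells. Set against the low-cycle cells, the Ezh2 ratio was 1.18 (0.685 to 1.91) and the Uhrf1 ratio 0.541 (0.0135 to 3.11). Suz12, with 11 UMIs, gave 2.46 (1.21 to 4.5), Tet1 2.59 (1.02 to 5.52) and Dnmt1 2.06 (0.971 to 3.86). The intervals of Suz12 and Tet1 lay above 1, as did those of 9.7% of all genes. Again 0 of 9 genes passed, where 5.94% of all genes did, and no interval lay wholly within the threshold, so neither a change of 1.5 times nor its absence was detectable for any of them at this depth. At 1000 UMIs Uhrf1 was found in 0 of 29 neuron-like cells, which allows a share of up to 10.3% by a floor of 3 cells (the exact interval reaches 11.9%), against 2.11% of low-cycle cells. Tet1 was found in 10.3% (2.19 to 27.4%) of neuron-like and 2.49% (1.53 to 3.82%) of low-cycle cells at that depth (15.6% and 10.8% at full depth).

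Of 13 genes listed as Polycomb targets, 5 were measured, and only Cdkn2a and Cdkn2b had the 50 UMIs needed to compare. These neighbouring genes for inhibitors of the cell cycle had 303 and 462 UMIs in low-cycle cells. Cdkn2b was below the fold threshold in S over low-cycle cells at 0.373 (0.311 to 0.445), and Cdkn2a gave 0.562 (0.463 to 0.68), with 1.91% of all genes below. In neuron-like cells Cdkn2a had 0 UMIs, at least 2.46-fold lower than in low-cycle cells with a floor of 3 UMIs over the class, and Cdkn2b had 1 UMI (0.089, 0.00225 to 0.498), with 1.12% of all genes below. Of the other pathway genes, Phc1, a PRC1 subunit, and Zfp57, which protects methylation at imprinted loci, were above the threshold in neuron-like cells over all others, at 4.24 (1.69 to 8.82, 7 UMIs) and 9.6 (4.08 to 19.3, 8 UMIs), with 5.24% of all genes above. Over low-cycle cells Phc1, Zfp57, Cbx6 (3.59, 1.6 to 7.09, 9 UMIs) and Phf1 (20.6, 1.86 to 143, 2 and 4 UMIs) were above, with 4.82% of all genes above. In Delta-positive over Delta-negative cells Gadd45g was above at 1.84 (1.62 to 2.1) and Cdkn2b below at 0.494 (0.366 to 0.654), with 0.534% of all genes above and 0.317% below. Within the low-cycle class Gadd45g gave 2.19 (1.71 to 2.77), with 0.48% of all genes above.

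Across the 9 combinations of S and G2/M tertiles, the genes whose log levels followed each member most closely were sought among 8217 genes with at least 200 UMIs. Highest for Uhrf1 were Timeless (Pearson's r 0.994) and Chek1 (0.993), for Dnmt1 Prim2 (0.989) and Topbp1 (0.985), and for Ezh2 Ssrp1 (0.988). Eed was nearest to A430005L14Rik (0.969) and Dck (0.966), and Suz12 to Tinf2 (0.981). Between members, r was 0.96 for Dnmt1 with Uhrf1, 0.943 for Ezh2 with Suz12, 0.834 for Tet2 with Tet3 and -0.699 for Tet3 with Ezh2. Eed gave 0.744 with Ezh2 and 0.728 with Suz12, and more, 0.915, with Dnmt1. Of the 8217 genes, 65 were more like Ezh2 than Suz12 was, 717 more than Eed was and 7349 more than Tet3 was. For Dnmt1, 39 genes were more like it than Uhrf1 was. The 9 points share 1 table and were cut by the same cycle lists, so these values describe likeness only.

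The E2F-type spellings were also counted in the promoters of other genes. Of the tested genes with a RefSeq window, 429 of 8194 (5.24%) held a match, and of those above the threshold in S over low-cycle cells 89 of 458 (19.4%) did. Of the genes below it 0 of 160 held a match, and of those in neither direction 340 of 7576 (4.49%). The genes of the S and G2/M lists, which cut the classes, were not taken out of the genes tested. The share among genes above the threshold is therefore not independent of how the classes were made. Among the 9 genes tested here, 4 of 4 above the threshold (Ezh2, Suz12, Dnmt1 and Uhrf1) and 0 of the other 5 tested held one. That split depends on the settings, since Eed, without a match, was above in 8 of 17 of them and Suz12 in 14 of 17. A match is a stretch of letters and not a measured binding site, and its absence says only that these spellings are not in the window.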

How the data were processed

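Per the labels, primary neurospheres were dissociated, captured by Drop-seq and sequenced to 60000 reads per cell. The series' design text speaks of nuclei and the protocol of dissociated cells. The authors deposited raw UMI counts per gene and barcode in 1 table, with mm10 as the build per the submitters' processing notes, and the aligner, annotation and strand setting were not stated there. The members, lists and comparisons were chosen with earlier results of these data known. Counts were summed over the cells of a class and given per 1000000 UMIs (CPM). Ratios of CPM carry exact conditional binomial intervals (SciPy 1.17.1), levels exact Poisson and shares exact binomial intervals, all 95%. Cells were clustered on 2000 variable genes and 30 components with 15 neighbours (scanpy 1.11.5, leidenalg 0.10.2, resolution 0.8). Other pathway genes are named when past the threshold (at most 5 per list), with Ezh1 and Uhrf2 always, and the likest genes by Pearson's r of log levels. No doublet caller was run, and leaving out the 1% of cells with most UMIs was an alternative. Leaving out the 285 barcodes whose last base was not read and the 25 pairs at a distance of 1 base was another. The count scripts were tested on data simulated with counting error only. A simulated 2-fold rise passed the threshold for 44% of genes in S over low-cycle cells, and a 2-fold fall for 42%. The shares were 58% and 28% in Delta-positive over Delta-negative cells, and 12% and 2% in neuron-like cells over all others. The 50 genes at each fold were drawn at random from all genes tested, so these shares are not those for the levels of the genes described here.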

Additional observations from a re-analysis of the deposited data

Results flagged for a closer look

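The 235 barcodes left out by the filters on genes and mitochondrial UMIs held signal of the 10 genes, which is outside the comparisons above: 261 UMIs, or 1332 CPM (1175 to 1504), against 1065 CPM in the kept cells. Just inside the limit of genes, from 500 to under 600 genes, the level was 1784 CPM (1431 to 2198) in 67 barcodes, and just outside, from 400 to under 500 genes, 1281 CPM (942 to 1704) in 64. At 9 to 10% mitochondrial UMIs it was 1412 CPM (1058 to 1847) in 22 barcodes, and at 10 to 11% 1200.4 CPM (841 to 1662) in 24. The cause of the difference was not tested.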

How the results depend on the processing

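Each comparison was recomputed under other settings of the filters, classes and scaling, and the Delta comparison also at equal phase mix, an alternative chosen after seeing the data that left 0 genes past the threshold. Of 110 such values for the summed level and the 6 counts, 100 stayed within 1.5 times (counts) or within counting error (summed level) of the value reported, and 10 did not: 9 counts, and the summed level, which moved only from 1065 to 1041 CPM with each cell thinned to 1000 UMIs. With a threshold of 1 in place of 1.5, so that an interval need only exclude 1, the count was 7 in S over low-cycle cells (5 above, 2 below; 18.6% and 20.7% of all genes), 8 in G2/M over low-cycle cells (5 above, 3 below; 18.7% and 25.6%), 3 in Delta-positive cells (all above; 6.56%), 3 in neuron-like cells over all others (1 above, 2 below; 9.76% and 5.6%) and 2 over low-cycle cells (both above; 9.7%). With thinned cells 1 gene (Suz12) was above in neuron-like over low-cycle cells. With neuron-like cells taken by 3 or more markers (26 cells), 1 gene (Ezh2) was below against all others. With a minimum of 1000 genes, the cluster with most neuron markers held 386 cells and was no longer a comparable class: 2 genes (Ezh2 and Dnmt1) were below against all others and 1 (Uhrf1) was above against low-cycle cells, where its log2 ratio turned to 1.12. The cause of these differences was not tested. Of 971 ratios of single genes under alternatives, 1 was reversed, 7 lost and 27 gained a call, and 936 kept theirs. Some alternatives left the cells of a comparison unchanged, such as a minimum of 200 genes for the cycle and Delta classes. No paired analysis was possible because the labels give 1 group and the columns carry no sample numbers. Depth limits the neuron-like results most, where 83423 UMIs put a count of 0 at up to 36 CPM. All intervals cover counting error only, and the spread between cultures is not known.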

Other observations

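Among the 9 clusters of kept cells, some TET genes (Tet1 in cluster 5, Tet2 and Tet3 in cluster 8) had intervals above their levels in each of the 5 cycle classes. In cluster 5, led by Ndrg1, Slc16a3 and Igfbp5, Tet1 stood at 84.9 CPM (63.9 to 110.5) from 55 UMIs, against 31.8 CPM in all kept cells, while Tet3 stood at 57.1 CPM (40.2 to 78.7) and Ezh2 at 284 CPM. In cluster 8, of 128 cells with a median of 985 UMIs, led by Per3, Malat1 and Csmd2, Tet2 stood at 122 CPM (77.1 to 183) from 23 UMIs, against 18.5 CPM in all, Tet3 at 95.2 CPM (56.4 to 150.5) and Dnmt3a at 169 CPM (116 to 239), while Tet1, at 26.5 CPM (8.59 to 61.7), was not above the cycle classes. The same cells held 254 CPM of Dnmt1, and their shallow depth moves with these levels, a relation that was not tested. Clusters were formed from the same counts, so these levels are a description.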
